A study of Mus musculus with 6 samples.

Results

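The genes described here are the G1 cyclins Ccnd1, Ccnd2 and Ccnd3, their kinases Cdk4 and Cdk6, the CDK inhibitors Cdkn1a, Cdkn1b, Cdkn2a and Cdkn2c, and the pocket protein gene Rb1. They were taken by name, and all 10 were found among the 40808 Entrez gene IDs of the count table. All 10 passed the filter on low counts that left 14110 genes to test. The libraries were made from polyA RNA of mouse spleen. Per the labels' protocols, the RNA came from leukemia cells in the spleen of mice that had received a bone marrow (BM) transplant. There were 3 libraries labelled as having no treatment (NO_DOX, replicates 4, 5 and 6) and 3 labelled as treated with Dox (ON_DOX, replicates 10, 11 and 12). The labels spell out neither Dox nor the gene it acts on, and they give no dose, duration, age, strain, sex or transgene for either group. The leukemia model, and the promoter of any transgene in it, are likewise not given in the sources used here. Nor do the labels say whether the libraries of a group came from separate mice, so p-values measure the spread between these libraries.

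D-type cyclins are the part of the G1 machinery that responds to mitogens. They bind CDK4 or CDK6, and the active kinase phosphorylates the retinoblastoma protein, which releases E2F transcription factors and lets cells enter S phase. INK4 proteins (from Cdkn2a and Cdkn2c) bind CDK4 and CDK6 themselves, whereas p21 (Cdkn1a) and p27 (Cdkn1b) bind cyclin-CDK complexes. Cyclin D3 and CDK6 are known for their part in the expansion of immature T cells and in T cell leukaemia, and the Cdkn2a locus is often lost in that disease.

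Some features of the libraries bear on every value below. Total counts ran from 5541486 to 8725767 per library. The floor of 3 counts lay between 0.344 and 0.541 CPM (counts scaled by the library total), a limit that covers counting error only. Among genes with 1 to 30 counts in a library, those with 1 to 3 made up 27.9% to 43% without Dox and 15% to 16% with Dox, so low counts were distributed differently in the groups, and the part of this in the low values below was not tested. Libraries of a group differed by more than read counting alone gives (chi-square over degrees of freedom from 6.85 to 37.1), so none was merged as a repeat deposit of another, which does not show that they came from separate mice. The common biological coefficient of variation was 0.19 without Dox and 0.515 with Dox. Counts of 4 Y-linked genes (Kdm5d, Uty, Ddx3y, Eif2s3y) added up to 545 to 801 in each library without Dox and to 0 in all 3 with Dox, and Xist had 193 to 324 and 3347 to 5669 counts. Haemoglobin genes took 8.61% to 9.04% of counts without Dox and 14.1% to 15.9% with Dox. Dox and sex-linked expression cannot be told apart here.

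Markers of several cell types also differed between the groups. The 10 T cell markers summed to between 1740 and 1840 normalized CPM without Dox and between 238 and 333 with Dox, and 8 of the 10 fell. Cd3d, a chain of the T cell receptor complex, was 468.6 to 476 normalized CPM without Dox and 14.23 to 17.6 with Dox. The 10 B cell markers summed to between 137 and 163 without Dox and between 2180 and 2400 with Dox, and all 10 rose. Ms4a1, which encodes the B cell surface protein CD20, was 4.029 to 5.269 normalized CPM without Dox and 567.9 to 604.8 with Dox. The 10 myeloid markers summed to between 171 and 180 without Dox and between 1890 and 2020 with Dox. Of these, 8 rose, the macrophage marker Adgre1 fell (log2 fold change -1.68, edgeR adjusted p = 0.00786), and Csf1r, a receptor gene of the monocyte lineage, did not pass (0.75). Ly6g, the neutrophil marker, was at 0 in every library without Dox, and S100a9, a neutrophil calcium-binding protein gene, was 21.19 to 33.28 and 1141 to 1242 normalized CPM. Which cells of the sample these transcripts came from was not tested. In bulk RNA such as this, fewer cells of a type and less RNA per cell cannot be told apart. The part of these marker changes in the results below was not tested.

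Against this background, 7 of the 10 genes changed with Dox: 3 rose (Ccnd1, Ccnd2, Rb1) and 4 fell (Cdk4, Cdk6, Cdkn1b, Cdkn2a), by the edgeR quasi-likelihood test with Benjamini-Hochberg adjustment over all genes and a threshold of 0.05. The same test called 45.6% of all tested genes, 23.6% higher and 22.1% lower, so a called gene is common in these libraries. The median log2 fold change of the 10 was -0.65, beside 0.073 for all genes tested. Values below are normalized CPM, in which each library total was corrected for composition (TMM). Reads came from the 3′ end of each mRNA, with 1 fragment expected per transcript, so levels of different genes are set side by side without division by length.

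**Figure D1:**
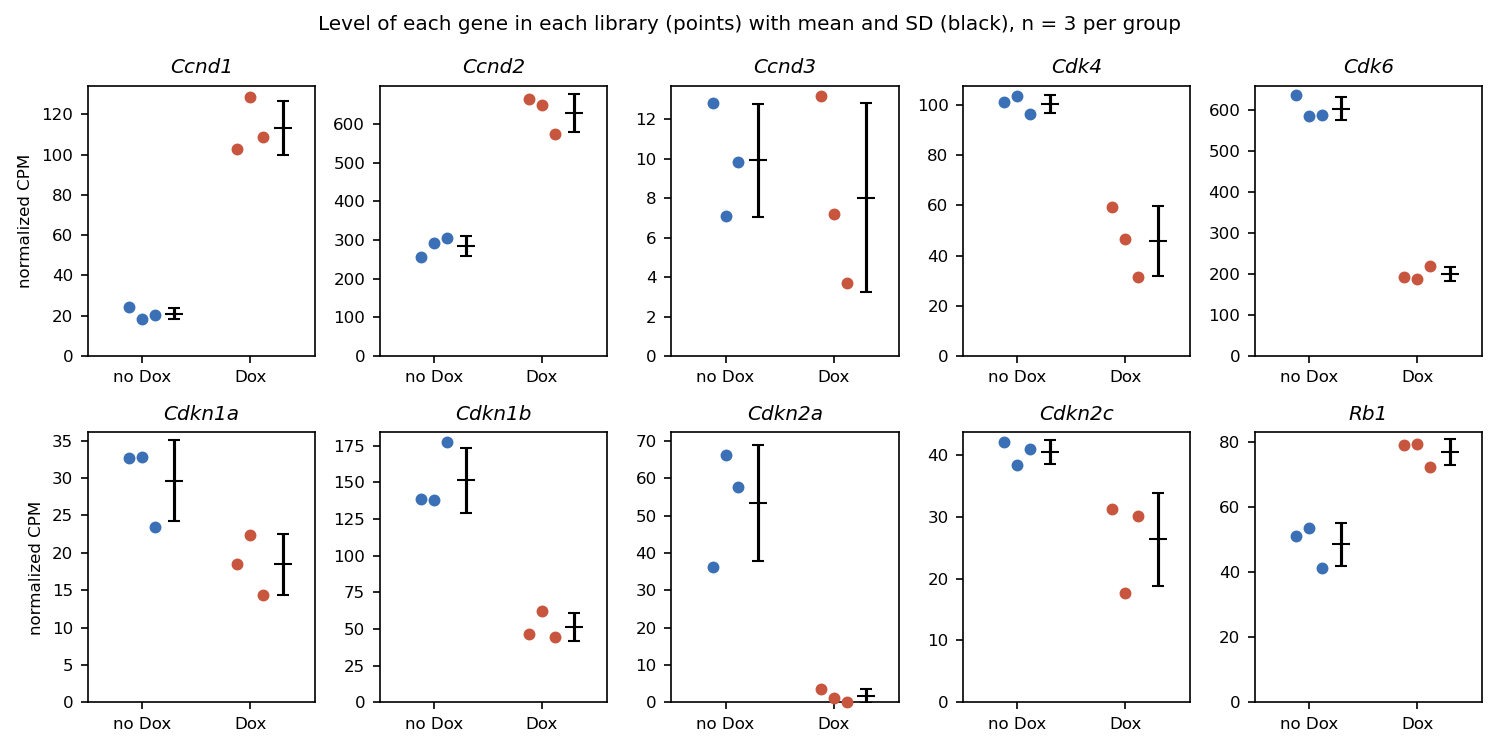
Normalized CPM (y axis, from 0, a scale of its own for each gene) of the 10 genes in each library without Dox (blue) and with Dox (red), with mean and SD of 3 libraries in black. The points of the groups lie apart for all genes but Ccnd3, whose Dox libraries run from 3.69 to 13.2 around libraries without Dox at 7.09 to 12.8.

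Ccnd1 showed the largest rise of the 3 D cyclins. Cyclin D1 is the form that normal lymphocytes express least and that many non-lymphoid cells rely on. Ccnd1 (Entrez gene 12443, chr7:144929931-144939831, GRCm38) was 24.17, 18.44 and 20.51 normalized CPM in replicates 4, 5 and 6 without Dox, and 102.9, 128.5 and 108.5 in replicates 10, 11 and 12 with Dox. Ccnd1 overlaps LTO1 on the other strand, a gene with 334 counts over all libraries. Every Dox library stood above every library without Dox, by a wide margin. The log2 fold change was 2.43 ± 0.20 (SE), or 5.37-fold, with an adjusted p of 1.31e-05 (edgeR). Of the 1557 genes within 0.5 log2 CPM of Ccnd1, 10.2% had a shift of this size or larger, up or down.

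Ccnd2 was the main D cyclin of both groups. Cyclin D2 serves B and T lymphocytes as they leave the resting state. Ccnd2 (Entrez gene 12444, chr6:127125162-127152188) was 257, 291.8 and 306 normalized CPM without Dox and 665.2, 648.8 and 574.4 with Dox, again with no overlap. It rose 2.21-fold, at a log2 fold change of 1.14 ± 0.15 (SE) and an adjusted p of 0.000184 (edgeR). A shift of this size or larger, up or down, was seen in 47.3% of the 222 genes within 0.5 log2 CPM of Ccnd2. With the trend of the libraries with transcript length removed, its log2 fold change was 0.715, still past the threshold (adjusted p = 0.00305). Its longest annotated transcript has 6330 bases, against 3740 for Ccnd1, which kept a value of 2.46 in that fit.

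Ccnd3 did not pass the test. Ccnd3 (Entrez gene 12445, chr17:47505051-47599689), the D cyclin needed for the expansion of immature thymocytes, was the lowest of the 3 at 12.83, 7.093 and 9.832 normalized CPM without Dox and 13.2, 7.205 and 3.69 with Dox. These values rest on 28 to 97 counts per library. Ccnd3 overlaps Bysl on the other strand (729 counts over all libraries) and Gm41590 (488), and without a stated strand setting reads of overlapping genes cannot be told apart. The groups overlapped, with Dox replicate 10 above and Dox replicate 12 below all libraries without Dox. The log2 fold change was -0.31 ± 0.52 (SE; adjusted p = 0.655 by edgeR), so its SE was larger than the difference itself. It was -0.887 without Dox replicate 10 and turned to 0.013 without Dox replicate 12.

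Ccnd1 made up more of the D cyclin counts with Dox, and Ccnd2 and Ccnd3 less. The Ccnd1 share was 6.71% ± 1.32 in libraries without Dox, against 15.1% ± 1.71 in those with it (SD, n = 3 each). In the same order, the Ccnd2 share was 90.1% ± 2.39 and 83.8% ± 1.23, and the Ccnd3 share 3.18% ± 1.09 and 1.05% ± 0.587 (SD, n = 3 each). In single libraries the Ccnd3 share was 4.37%, 2.23% and 2.92% for replicates 4, 5 and 6 and 1.69%, 0.918% and 0.537% for the Dox replicates 10, 11 and 12, and the 95% Wilson intervals of the closest libraries were 1.61% to 3.09% (replicate 5) and 1.39% to 2.06% (replicate 10). The groups did not overlap in any of the 3 shares, each with an exact two-sided permutation p of 0.1, the smallest that 3 against 3 allows (0.114 adjusted over the 8 such tests run here). Because a share is taken within a library, it does not depend on the scaling between libraries. A trend of the libraries with transcript length can still alter it, and shares were not recomputed with that trend removed. Summed over the 3 D cyclins, the level went from a mean of 316 ± 21.2 normalized CPM to 751 ± 55.6 with Dox (SD, n = 3 each), 2.38 times as high (exact permutation p = 0.1, adjusted 0.114).

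**Figure D2:**
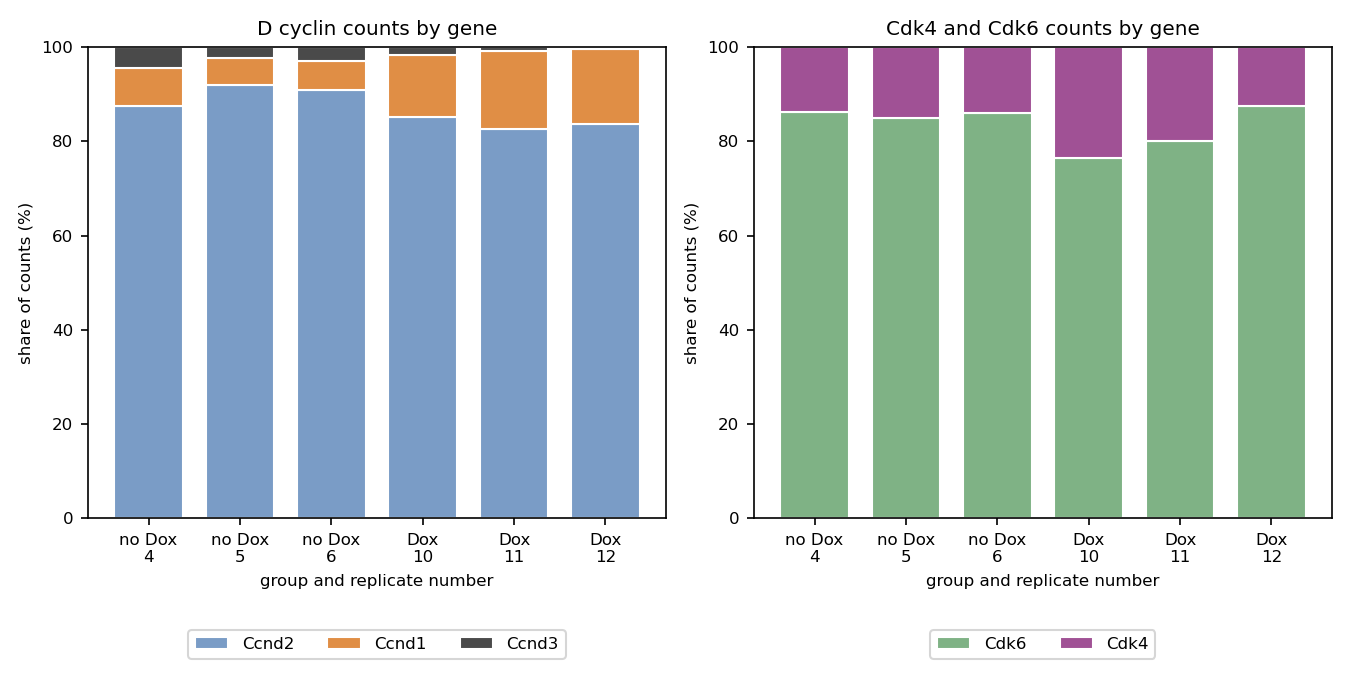
Share of counts (y axis, percent) of each D cyclin gene (left) and of Cdk4 and Cdk6 (right) in each of the 6 libraries. Ccnd1 takes 5.81% to 8.22% without Dox and 13.2% to 16.4% with Dox; the Cdk6 share is 85% to 86.3% without Dox and spreads from 76.4% to 87.4% with Dox.

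The partner kinases went the other way from Ccnd1 and Ccnd2. Cdk6 (Entrez gene 12571, chr5:3341004-3531008), the kinase that prevails in blood progenitors and T cells, was the highest of the 10 genes without Dox at 636, 585.5 and 588.1 normalized CPM. With Dox it was 191.5, 187.5 and 220.1, so the lowest library without Dox stood far above the highest with Dox. It fell 3.02-fold (SE of the log2 fold change 0.15), with an adjusted p of 2.28e-05 (edgeR). A shift of this size or larger, up or down, was seen in 37.2% of the 258 genes within 0.5 log2 CPM of Cdk6. With the length trend removed the fall was larger, at -2.42 (adjusted p = 1.37e-06), and its longest transcript has 11525 bases, the longest of the 10 genes. Cdk6 overlaps Gm36470 and Gm29868, with 214 and 776 counts over all libraries.

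Cdk4 (Entrez gene 12567, chr10:127063535-127067288) was 101.2, 103.4 and 96.29 normalized CPM without Dox and 59.2, 46.52 and 31.63 with Dox. The libraries without Dox agreed closely, and those with Dox were spread but all lower. The log2 fold change was -1.13 ± 0.23 (SE), 2.19-fold lower, with an adjusted p of 0.00318 (edgeR). It was -0.943 without Dox replicate 12, -1.38 without Dox replicate 10 and -0.739 with the length trend removed, and passed the threshold each time. A shift at least as large as -1.13 in size, up or down, was seen in 40.7% of the 1473 genes within 0.5 log2 CPM of Cdk4. Cdk4 overlaps Tspan31, a gene on the other strand with 611 counts over all libraries, and the sources used here do not say whether counting used strand. The Cdk6 share of the counts of both kinases was 85.7% ± 0.662, against 81.3% ± 5.62 in Dox libraries (SD, n = 3 each), and the groups overlapped (exact two-sided permutation p = 0.4). The difference of the means was -4.42 percentage points, -1.96 without Dox replicate 10 and -7.48 without Dox replicate 12. With the length trend removed, the log2 fold changes of Cdk6 and Cdk4 lay farther apart (-2.42 and -0.739, against -1.59 and -1.13). The share itself was not recomputed in that way. Summed over both kinases the level was 704 ± 29.3 in the group without Dox, against 246 ± 9.94 normalized CPM in the other (SD, n = 3 each), 2.87 times lower with no overlap (exact permutation p = 0.1, adjusted 0.114).

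The promoters of both kinase genes are shown because they hold the E-box CACGTG, a site bound by the transcription factor MYC and its relatives, and because Cdk4 is a textbook MYC target. Sequences are from RefSeq (GRCm38.p6), 250 bases before to 50 after an annotated start, and capitals mark each E-box, which reads the same on both strands. The window of Cdk4 is chr10:127063285-127063584 on the + strand and that of Cdk6 is chr5:3343643-3343942 on the + strand.
Cdk4: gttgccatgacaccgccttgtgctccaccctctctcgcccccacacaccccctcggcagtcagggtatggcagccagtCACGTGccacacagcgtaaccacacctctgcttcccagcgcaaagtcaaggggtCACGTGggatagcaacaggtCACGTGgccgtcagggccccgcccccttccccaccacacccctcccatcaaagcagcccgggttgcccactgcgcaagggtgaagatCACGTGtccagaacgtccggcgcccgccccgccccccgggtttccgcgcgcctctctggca
Cdk6: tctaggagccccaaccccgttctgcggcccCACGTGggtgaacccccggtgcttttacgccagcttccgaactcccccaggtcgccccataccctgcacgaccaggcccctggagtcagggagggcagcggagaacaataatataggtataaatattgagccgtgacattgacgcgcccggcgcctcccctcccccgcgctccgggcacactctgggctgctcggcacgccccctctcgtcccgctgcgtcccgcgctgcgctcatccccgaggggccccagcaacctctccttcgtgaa
Cdk4 holds 4 E-boxes, at -172, -118, -98 and -11 from the start, and Cdk6 holds 1, at -220. Of the windows of the other genes, 1 of Cdkn2c holds 1 E-box. Ccnd1, Ccnd2 and Rb1, the genes that rose, had no window to search, so their E-boxes are not known here. Of 32851 promoter windows of the same length, 7.15% hold at least 1 and 8 (0.0244%) hold 4 or more. The windows were printed because they hold the motif, so these shares are no test of it. A match of letters is a description and not a bound site. A part of MYC in the fall of either gene was not tested.

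All 4 inhibitor genes had lower values with Dox, and 2 of them fell past the threshold. Cdkn2a (Entrez gene 12578, chr4:89274473-89294619) showed the largest change of the 10 genes. Its counts were 243, 327 and 340 in replicates 4, 5 and 6, against 27, 11 and 0 in the Dox replicates 10, 11 and 12. This gave 36.26, 66.27 and 57.64 normalized CPM without Dox and 3.674, 1.132 and 0 normalized CPM with Dox, and the 0 of replicate 12 allows up to 0.424 CPM. The libraries without Dox differed among themselves by less than the gap to the highest Dox library. The log2 fold change was -5.07 ± 0.75 (SE), 33.6-fold lower, with an adjusted p of 0.00044 (edgeR). The call held under every alternative that gave a value, but its size varied, from -4.16 with the length trend removed to -6.42 without Dox replicate 10, and it was -6.22 by limma-voom. Of the 2364 genes within 0.5 log2 CPM of Cdkn2a, 1.31% had a shift of this size or larger.

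Cdkn2a encodes a pair of unlike proteins from separate first exons joined to shared later exons. The INK4 protein p16 blocks CDK4 and CDK6, and p19ARF, read in another frame, stabilises p53 by holding back MDM2. GENCODE lists 2 transcripts, one starting at 89294653 (the ARF form, upstream) and one at 89282192 (the p16 form), which end within the same exon at 89274541 and 89274471 on the - strand. A library that reads 3′ ends cannot tell them apart, so the counts are their sum. The promoter of each form is printed to show that the starts differ, with capitals on the E2F motif, searched on both strands as TTTCCCGC, TTTGGCGC, TTTCGCGC and TTTGCCGC. The ARF window is chr4:89294570-89294869 and the p16 window chr4:89282143-89282442, both on the - strand.
Cdkn2a ARF start: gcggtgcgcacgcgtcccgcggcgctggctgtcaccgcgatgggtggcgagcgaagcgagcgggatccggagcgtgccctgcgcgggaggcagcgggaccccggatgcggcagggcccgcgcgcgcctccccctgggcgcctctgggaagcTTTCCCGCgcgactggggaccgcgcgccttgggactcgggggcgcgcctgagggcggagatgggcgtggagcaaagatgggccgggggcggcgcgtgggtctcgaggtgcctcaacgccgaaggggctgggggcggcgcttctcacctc
Cdkn2a p16 start: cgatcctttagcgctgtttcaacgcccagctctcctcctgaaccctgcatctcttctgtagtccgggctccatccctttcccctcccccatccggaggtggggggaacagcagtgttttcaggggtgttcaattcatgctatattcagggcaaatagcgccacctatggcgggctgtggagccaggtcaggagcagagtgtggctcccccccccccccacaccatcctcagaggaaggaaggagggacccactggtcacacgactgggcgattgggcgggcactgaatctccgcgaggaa
The ARF window holds 1 match, at -99 from the RefSeq start, and these letters do not occur in the p16 window. At least 1 match is found in 2.26% of the 32851 windows. Over the 7 genes of the 10 with a window, 11 windows in all, the ARF window was the one with an E2F match. Ccnd1, Ccnd2 and Rb1 had no window. The motif GTGGGAA of CSL (RBPJ), the DNA-binding partner of Notch, was searched on both strands and occurred in 0 of the 11. It is present in 6.38% of all windows, so its absence from 11 says little. The GC box GGGCGG, also searched, is present in 35.7% of all windows. It occurred in at least 1 window of each of the 7 genes but Cdk6.

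Cdkn1b (Entrez gene 12576, chr6:134920401-134925525), which encodes the quiescence inhibitor p27, was the most abundant inhibitor of both groups. It was 138.8, 138.2 and 177.3 normalized CPM without Dox and 46.41, 62.47 and 44.94 with Dox, with no overlap. It fell by 1.56 on the log2 scale (SE 0.20), 2.95-fold lower, with an adjusted p of 0.000187 (edgeR). A shift of this size or larger, up or down, was seen in 27.5% of the 1149 genes within 0.5 log2 CPM of Cdkn1b.

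Cdkn1a and Cdkn2c had non-overlapping groups but missed the threshold. Cdkn1a (Entrez gene 12575, chr17:29090979-29100722), whose product p21 is induced by p53, was 32.68, 32.83 and 23.39 normalized CPM without Dox and 18.51, 22.44 and 14.36 with Dox. The gap between the lowest library without Dox and the highest with Dox was under 1 normalized CPM. Its log2 fold change was -0.68 ± 0.28 (SE; adjusted p = 0.0721 by edgeR). It passed without Dox replicate 11 (-0.874, adjusted p = 0.0389) and with no low-count filter (adjusted p = 0.0481), and was smaller by library size only (-0.363, adjusted p = 0.32) and after removal of the length trend (-0.296, adjusted p = 0.416). Cdkn2c (Entrez gene 12580, chr4:109660876-109666756), the gene of the INK4 protein p18, was 42.08, 38.3 and 40.86 normalized CPM without Dox and 31.16, 17.7 and 30.05 with Dox. Dox replicate 11 lay well below the other Dox libraries. Its log2 fold change was -0.62 ± 0.26 (SE; adjusted p = 0.0786 by edgeR). It passed without Dox replicate 12 (-0.749, adjusted p = 0.0432), with no low-count filter (adjusted p = 0.0383) and by limma-voom without and with group weights (adjusted p of 0.0485 and 0.0364). It was smaller without Dox replicate 11 (-0.426, adjusted p = 0.143), by library size only (-0.312, adjusted p = 0.36) and after removal of the length trend (-0.349, adjusted p = 0.311).

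Rb1 (Entrez gene 19645, chr14:73192858-73325951), the substrate at the end of the pathway and its brake on E2F, rose. It was 51.03, 53.5 and 41.19 normalized CPM without Dox and 79.21, 79.35 and 72.35 with Dox. The groups were separate and the Dox libraries close together. The log2 fold change was 0.66 ± 0.19 (SE), 1.58-fold, with an adjusted p of 0.0148 (edgeR), and 61.3% of the 1650 genes at a like level had a shift of this size or larger. The call was lost without replicate 4, 5 or 6 of the group without Dox (adjusted p of 0.072, 0.0754 and 0.125) and with no low-count filter (0.115). Rb1 overlaps Lpar6, a receptor gene on the other strand with 1250 counts over all libraries.

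**Figure D3:**
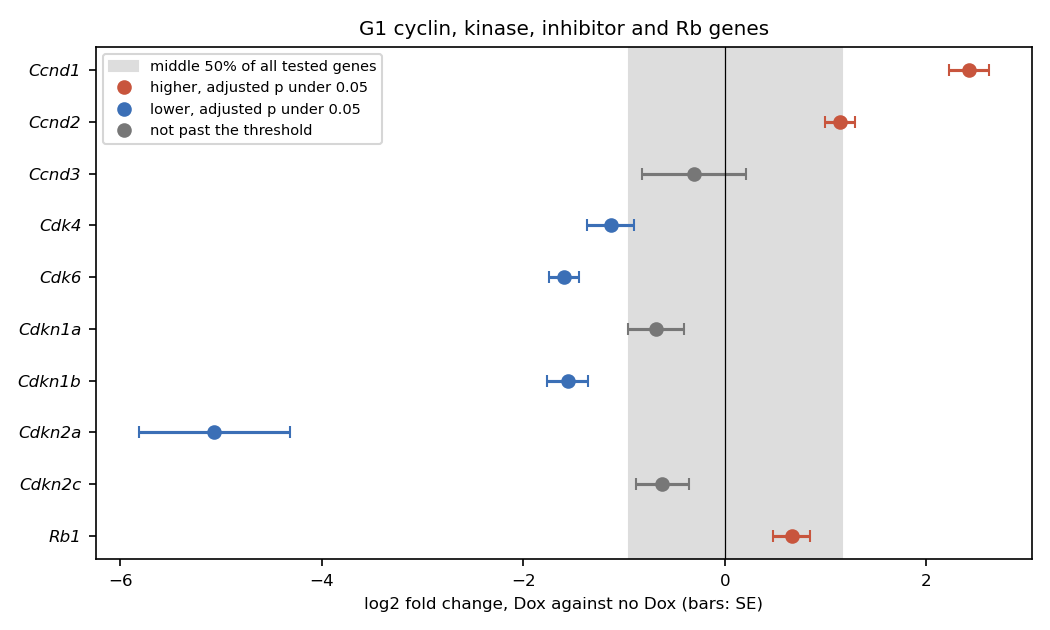
Log2 fold change with SE (x axis, Dox against no Dox) of the 10 genes, coloured by call, over a grey band from the lower to the upper quartile of all tested genes (-0.951 to 1.16). Cdkn2a (-5.07) and Ccnd1 (2.43) lie farthest out, while Ccnd2 (1.14), Ccnd3, Cdkn1a, Cdkn2c and Rb1 lie within the band.

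Relative to the D cyclins, inhibitor counts were far lower in the Dox libraries. The 4 inhibitors had 85, 86.8 and 89 counts for every 100 D cyclin counts in replicates 4, 5 and 6 without Dox, and 12.8, 13.2 and 13 in replicates 10, 11 and 12 with Dox. Within each group the libraries were nearly alike. The mean log2 ratio was -0.20 ± 0.033 in the group without Dox, against -2.94 ± 0.025 in the other (SD, n = 3 each), a difference of -2.74 (exact permutation test, two-sided p = 0.1, adjusted 0.114). The difference ran from -2.76 to -2.72 with each library left out in turn. The 4 inhibitors summed to 275 ± 24.7 normalized CPM in the group without Dox, against 97.6 ± 7.43 in the other (SD, n = 3 each), 2.82 times lower (exact permutation p = 0.1, adjusted 0.114). Sums of counts are weighted to the abundant genes, here Ccnd2 (90.1% and 83.8% of D cyclin counts) and Cdkn1b. Cdkn1a, Cdkn2c and Ccnd3, which are in these sums, did not pass on their own. The ratio is therefore no sign of a shared shift of all its genes.

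The order of the levels changed with the groups. Without Dox it ran Cdk6, Ccnd2, Cdkn1b, Cdk4, Cdkn2a, Rb1, Cdkn2c, Cdkn1a, Ccnd1 and Ccnd3 in normalized CPM. Neighbours in this order whose library ranges overlapped were Cdkn2a and Rb1, Rb1 and Cdkn2c, and Cdkn1a and Ccnd1. With Dox it ran Ccnd2, Cdk6, Ccnd1, Rb1, Cdkn1b, Cdk4, Cdkn2c, Cdkn1a, Ccnd3 and Cdkn2a, with overlap between Cdkn1b and Cdk4 and between Cdkn2c and Cdkn1a. Ccnd1 moved from the ninth place to the third, and Cdkn2a from the fifth to the last. For 9 of the 10 genes the groups did not overlap, against 59.6% of all tested genes. Among the Dox libraries, replicate 12 was the lowest for 7 of the 10. This was not counted over all tested genes, so it cannot be read as a trait of the 10.

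The genes nearest to each D cyclin over the 6 libraries were found by the root mean square difference of log2 normalized CPM, each gene centred on its own mean. For Ccnd1 they were Zbtb20 (0.0956) and Dennd4b (0.0967). For Ccnd2 they were the erythroid haem synthesis gene Alas2 (0.0276) and the basement membrane collagen gene Col4a2 (0.0555). For Ccnd3 they were Cdc7 (0.2), a kinase gene of replication origins, and Fam78a (0.207). With 2 groups of 3 libraries, this measure mainly finds genes with a fold change of like size.

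The other genes of the pathway were read from 7 lists with 69 genes, of which 67 were tested. Of these, 11 rose (16.4%, against 23.6% of all genes) and 32 fell (47.8%, against 22.1%), with a median log2 fold change of -0.46 beside 0.073 for all genes. When libraries were scaled by size alone, which shifted the median of all genes by 0.31, 14 were called higher and 22 lower.

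Of the later G1/S kinases and cyclins, 5 of 8 fell and 0 rose (median -0.86). Ccnh, a subunit of the CDK-activating kinase that also serves CDK4 and CDK6, fell from 76.4 ± 6.69 to 20.5 ± 7.68 normalized CPM (SD, n = 3 each), a log2 fold change -1.90 with an edgeR adjusted p of 0.000354. Cdk2, the partner of cyclins E and A, fell by 1.44 on the log2 scale (SE 0.30). The cyclin E genes Ccne1 and Ccne2 did not pass, at -0.30 and -0.33.

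Of the other inhibitors and pocket proteins, 4 of 5 were tested, of which 1 rose and 2 fell. The 2 relatives of Rb1 moved apart. Rbl2, the gene of p130, which prevails in resting cells, rose from 9.84 ± 1.15 to 31.5 ± 10.4 normalized CPM (SD, n = 3 each), a log2 fold change 1.68 with an edgeR adjusted p of 0.00204. Rbl1, the gene of p107, fell by 0.74 on the log2 scale (adjusted p = 0.0484). The INK4 gene Cdkn2d fell by 1.30 (SE 0.38, adjusted p = 0.0192), from 52.53 to 64.93 normalized CPM without Dox to 9.752 to 34.02 with Dox. Cdkn2b, the neighbour of Cdkn2a, was at 1.05 ± 0.771 and 1.1 ± 1.9 normalized CPM (SD, n = 3 each) and did not pass the filter.

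Of the E2F genes and their partners, 4 of 10 rose and 3 fell (median 0.092). The DP partners went in opposite directions: Tfdp1 fell from 95 ± 9.35 to 14.2 ± 2.22 normalized CPM and Tfdp2 rose from 139 ± 23.2 to 401 ± 26.3 (SD, n = 3 each), with log2 fold changes of -2.75 and 1.52 (adjusted p of 8.42e-06 and 7.69e-05 by edgeR). E2f4, a repressor E2F of resting cells, fell by 1.92 on the log2 scale (SE 0.36). E2f8, an atypical repressor expressed in S phase, rose by 0.96 (SE 0.17). The activator E2f1 was at -0.33 and did not pass.

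Of the ubiquitin ligase genes that act on G1 proteins, 5 of 10 fell and 2 rose (median -0.68). Cks1b, the cofactor with which SKP2 marks p27 for destruction, fell from 258 ± 19.5 to 38.1 ± 18.9 normalized CPM (SD, n = 3 each), a log2 fold change -2.76 with an edgeR adjusted p of 0.000176. Skp1, the adaptor of the same ligase, fell by 2.19 on the log2 scale (SE 0.31). Cul4a, the scaffold of a further ligase, rose by 0.94 (SE 0.19), and Fzr1, an activator of the anaphase-promoting complex in G1, rose by 0.77 (SE 0.18).

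Of p53 and its target genes, 13 of 14 were tested, 5 fell and 1 rose (median -0.22). The death gene Bax fell from 97 ± 22.2 to 12.1 ± 4.87 normalized CPM (SD, n = 3 each), and the death gene Bbc3 had a log2 fold change of -4.45 (adjusted p of 7.52e-05 and 5.77e-05 by edgeR). Bbc3 was 17.76 to 20.34 normalized CPM without Dox and 0.5444 to 1.318 with Dox. Mdm4, an inhibitor of p53, rose from 48.6 ± 6.35 to 140 ± 40.3 normalized CPM (SD, n = 3 each), with an edgeR adjusted p of 0.000608. Mdm2, the target gene that feeds back on p53, was at a log2 fold change of 0.038 and did not pass.

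Of the transcriptional regulators of CDK inhibitor genes, 3 of 10 rose and 4 fell (median 0.21). Klf4, an activator of Cdkn1a, was 0.3391 to 5.269 normalized CPM without Dox and 23.98 to 39.83 with Dox (a log2 fold change of 3.50 with an SE of 0.63, edgeR adjusted p = 0.00142). Foxo1, an activator of Cdkn1b, rose by 1.68 (SE 0.21). Bmi1, a Polycomb repressor of Cdkn2a, fell by 1.62 (SE 0.48). Gfi1, a zinc finger repressor of blood cells, fell by 3.21 (SE 0.88). Whether any of these regulators acted on the inhibitor genes here was not tested.

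Of 12 proliferation markers, 8 fell and 0 rose (median -1.12). Pcna, the sliding clamp of replication, fell from 463 ± 51.3 to 75.7 ± 17.9 normalized CPM (SD, n = 3 each), a log2 fold change -2.62 with an edgeR adjusted p of 8.96e-06, and the mitotic kinase gene Aurkb fell by 2.43 (SE 0.40). The 4 that did not pass were Mki67 (0.092), Top2a (-0.24), Birc5 (-0.48) and Plk1 (0.068).

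**Figure D4:**
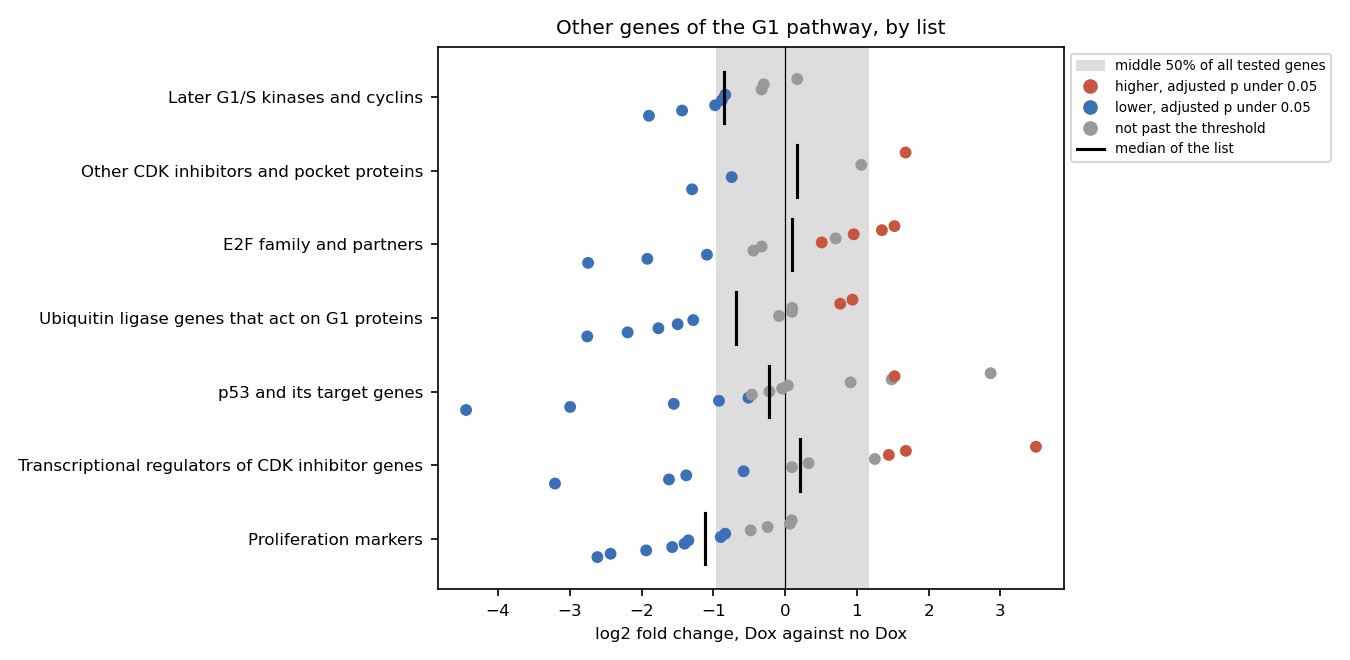
Log2 fold change (x axis, Dox against no Dox) of the 67 tested genes of the 7 pathway lists, coloured by call, with the median of each list as a black bar and the quartile range of all tested genes in grey. The proliferation markers and the later G1/S genes have calls in the lower direction alone, and the E2F and regulator lists have calls on both sides.

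The remaining marker lists differed less between the groups or in both directions. Erythroid markers summed to between 57800 and 63000 normalized CPM without Dox and between 70200 and 75500 with Dox, with 4 of 9 tested genes higher and 2 lower; Hba-a1 rose by 0.95 and Hbb-bs fell by 1.23 on the log2 scale, globin genes whose close copies can share reads. The 6 NK markers summed to between 347 and 398 and between 14.4 and 17.8, with 2 of 4 tested genes higher and 1 lower. Nearly all of the sum without Dox was Gzma, a granzyme gene at 341.1 to 395.2, which had 0 counts in each Dox library. Nkg7, a cytotoxic granule gene, and Klrd1, a lectin receptor gene, rose, by 3.79 and 4.03 on the log2 scale. Plasma cell markers summed to between 283 and 310 and between 249 and 264, with 2 of 5 higher and 2 lower, among them Mzb1 (log2 fold change 1.05) and the immunoglobulin joining chain gene Jchain (-0.58). Stromal and endothelial markers summed to between 544 and 581 and between 711 and 884, with 4 of 10 higher and 2 lower; the matrix gene Sparc rose by 1.03 and the collagen gene Col1a2 was at 0.061. Their part in the values of the 10 genes was not tested.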

How the data were processed

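RNA of mouse spleen was sequenced in 6 libraries, 3 without and 3 with Dox, with groups and replicate numbers taken from the titles. Libraries were made with the QuantSeq 3′ mRNA-Seq V2 kit, per the labels' protocols. The authors deposited 1 table of raw counts per Entrez gene, not pooled over replicates. STAR, featureCounts and the build GRCm38 are listed in the submitters' processing notes, with no versions; the annotation, strand setting and use of molecular identifiers are not given in the sources used here.

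Symbols and positions came from RefSeq GRCm38.p6, which named 39374 (96.5%) of 40808 IDs. Of 140 list genes, 1 (Ahsp) was not found. After filterByExpr (at least 10 counts, total of 15) and TMM scaling, the 6 libraries were fitted together in edgeR 4.0.16 (R 4.3.3) by glmQLFit and tested by glmQLFTest without covariates, with Benjamini-Hochberg adjustment over 14110 genes and a threshold of 0.05. The SE is the absolute log2 fold change over the square root of F. Shares and sums were compared by an exact two-sided permutation test over libraries. The edgeR step, and not the permutation test, was run on simulated counts with known changes. Alternatives used DESeq2 1.42.0 and limma 3.58.1, other scalings, filters and thresholds, and each library left out; removal of a length trend (loess on the longest GENCODE M21 transcript) and limma-voom with group weights were chosen after seeing the data.

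The 10 genes and the lists, written from general knowledge, were chosen with earlier results of these data known. Named were the 10 genes; from each pathway list up to 2 higher and 2 lower genes with the largest log2 fold change among those past the threshold with groups that do not overlap; the 2 nearest genes of each D cyclin with at least median level; and the 2 most abundant genes of each marker list. Bcl11b, Ighm and S100a8, which the rule also names, had log2 fold changes of -2.82, 1.96 and 3.93. Ly6g, Adgre1, Csf1r, Klrd1, Ccne1, Ccne2, Cdkn2b, E2f1, Mdm2, Mki67, Top2a, Birc5 and Plk1, the sex-linked genes and the overlapping genes were chosen with their values in view.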

Additional observations from a re-analysis of the deposited data

How the results depend on the processing

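No paired analysis was possible because the numbers 4 to 6 of one group do not recur in the other, which has 10 to 12. Of 159 values of the 10 genes under the alternatives, 147 kept their direction and side of the threshold, 4 lost the call (all Rb1), 6 gained one (Cdkn1a and Cdkn2c) and 2 changed sign. Both were Ccnd3, at 0.0176 with scaling by library size and at 0.0131 without Dox replicate 12, with a range from -0.887 to 0.0131 as each library was left out; the cause was not tested. Cdkn2a had no value where 10 counts were asked of every library. Of the pathway genes, 21 were lower at an adjusted p under 0.01 (main count 32), as the stricter threshold implies. With each library left out, genes of the 10 called higher ran from 2 to 3 and lower from 4 to 5, and pathway genes called higher from 8 to 11 and lower from 25 to 33. Shares and the inhibitor ratio kept their direction under every alternative run for them, which did not include removal of the length trend. Counts were lowest for Ccnd3, at 28 to 97 per library, and for Cdkn2a with Dox, at 0 to 27; what part depth has in their spread was not tested.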
